A study of Homo sapiens with 8 samples.

Results

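The genes described are the 29 pore and auxiliary subunit genes of voltage-gated sodium and calcium channels that were listed by name: 8 sodium channel pores, 3 sodium channel β subunits, 10 calcium channel pores, 4 calcium channel β subunits and 4 α2δ subunits. Sodium channel genes beyond these are not analysed here, so sums and shares over sodium pores or β subunits cover the listed genes only. They were found among 58592 genes by summing transcripts per gene, and 34290 of those genes had a count in some library. RNA was sequenced from HEK293T, a line derived from human embryonic kidney and expressing SV40 large T antigen, which often serves as a host for transfected channels. The control group was 4 libraries of normal cells, and the overexpression group was 4 libraries of cells transfected, using FuGene HD, with a plasmid for the tagged reading frame of human KCNQ3, harvested 48 hours later. KCNQ3 is a pore subunit of the channels behind the M-current, a potassium current that quiets neurons. All cells were grown in high-glucose DMEM with fetal bovine serum and antibiotics. The transfection text stands on every sample, and the sources used here do not say whether control cells were mock-transfected. The 4 libraries per group are called biological replicates, but separately started cultures are not mentioned, so p-values here speak of the spread among these libraries alone, which may be technical.

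Voltage-gated sodium channels open briefly on depolarization and carry the upstroke of the action potential, and their pore protein is a single chain of homologous domains. Calcium channels use the same plan. Their L, P/Q, N and R types open at strong depolarization and travel to the membrane with a cytoplasmic β subunit and an extracellular α2δ subunit, while T-type pores open near rest and can work without either. HEK293T cells are not excitable, and lines of this origin are used for channel recordings because their own voltage-gated currents are small.

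In total 24020097 to 30734915 estimated counts were deposited per library, and KCNQ3 had 0 to 5 counts in each control library and 15283 to 19709 in each overexpression library, which checks the labels. All 10 listed markers of the HEK293T line had enough counts to test, with a summed level of 879 to 1065 TPM (a level scaled by transcript length and library total) in controls and 841 to 953 TPM after overexpression. Of 8 markers of mature kidney 1 had enough counts to test, and AQP2 and UMOD were at 0. Blood markers CD3E, HBB and PTPRC were at 0 as well. The 8 neuronal markers summed to 14.9 to 19.4 TPM in controls and 12.5 to 15.6 TPM after overexpression. SNAP25, a vesicle fusion protein, was the 1 listed marker that passed the gene test: it fell by 1.46 on the log2 scale (edgeR adjusted p = 0.0442). Its level was low, at 0.477 to 0.833 CPM (counts scaled to a common library total) in controls and 0.188 to 0.249 CPM after overexpression. The other tested neuronal markers, RBFOX3, GAD1, SLC17A7 and SYT1, had log2 fold changes from −0.13 to 0.03. The part of these markers in any channel level was not tested.

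Most of these channel genes were transcribed in normal HEK293T cells, but at low levels. A count was found in every control library for 22 of the 29 genes, in some control libraries for 2, and in none for 5. The 5 were SCN1A, SCN10A and SCN11A, sodium channel pores of neurons, CACNA1F, the L-type pore of the retina, and CACNA1S, the L-type pore of skeletal muscle. A count of 0 over the 4 control libraries allows a level of up to 0.0282 CPM, taking 3 counts as the floor and covering counting error only. SCN1A, SCN10A, CACNA1F and CACNA1S were also at 0 in every overexpression library. Only 11 of the 29 reached a control mean of 1 TPM, and 19 of the 29 had enough counts to enter the gene test.

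**Figure D1:**
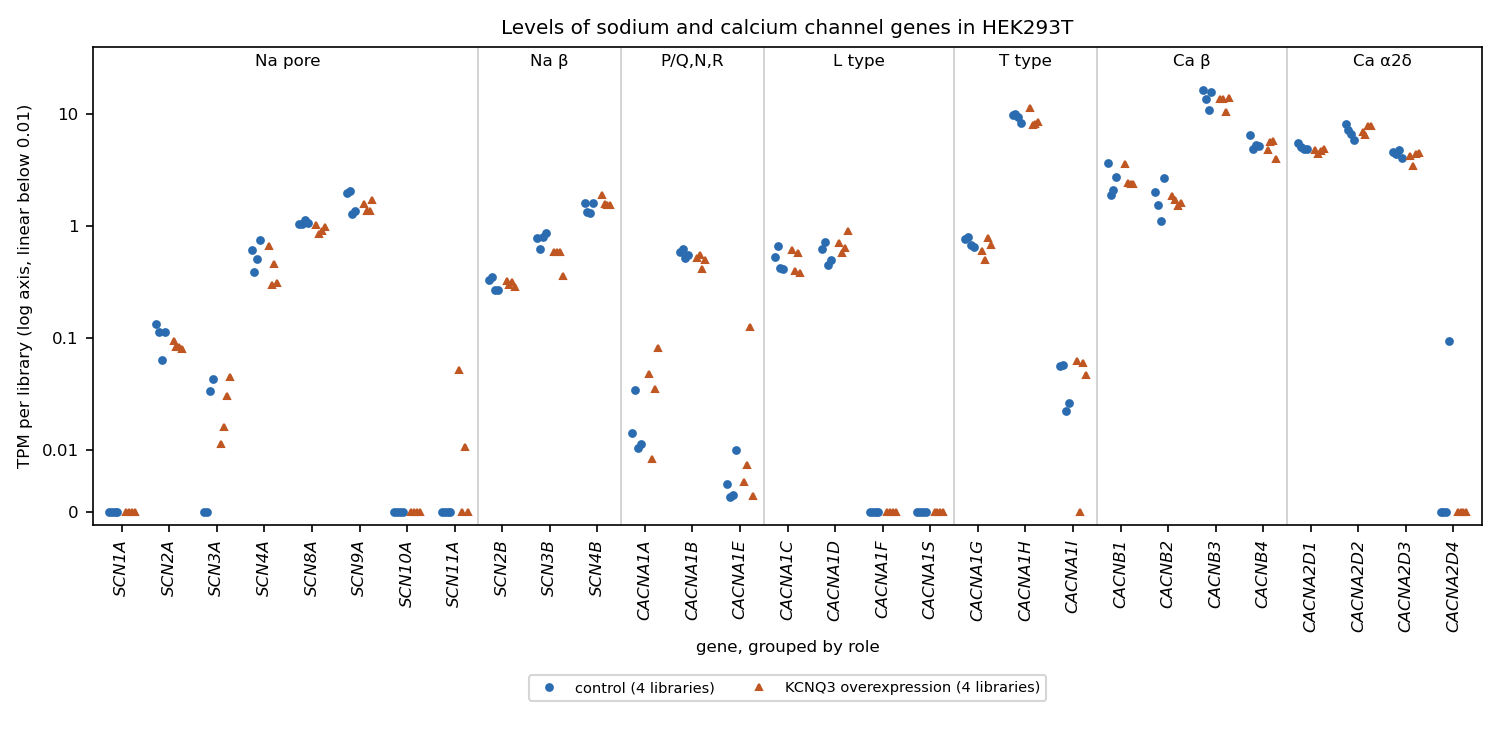
TPM of each channel gene in each of 8 libraries, on an axis that is logarithmic above 0.01 TPM and linear below it; circles are controls and triangles KCNQ3 overexpression, and vertical lines separate the roles. CACNB3 and CACNA1H had the highest control means, the groups overlapped for most genes, and SCN1A, SCN10A, CACNA1F and CACNA1S lay at 0 in all 8 libraries.

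Summed over all transcripts, coding or not, the auxiliary calcium channel subunits were the most abundant class. The 4 β subunit genes summed to 24.2 ± 4.3 TPM in controls (SD, n = 4) and the 4 α2δ genes to 16.7 ± 1.3 TPM. The 10 calcium pores together reached 11.9 ± 1.0 TPM, the 8 sodium pores 3.46 ± 0.33 TPM and the 3 sodium β subunits 2.54 ± 0.23 TPM. In the overexpression libraries the same sums were 22.4 ± 1.7, 16.1 ± 1.3, 11.5 ± 1.7, 3.01 ± 0.35 and 2.48 ± 0.25 TPM. The ranges of the 2 groups overlapped in each of these 5 classes. Coding transcripts held a mean of 15.1% of the control counts of CACNB3, 34.3% for CACNB1 and 66.5% for CACNB4. For CACNB2 this share was 99.7%, and for CACNA1H 98.0%. The order of the classes need not hold for coding transcripts alone.

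The order of the genes by control TPM, over coding and other transcripts alike, began with CACNB3, a cytoplasmic β subunit, at 14.3 ± 2.5 TPM. Next came CACNA1H, the T-type pore Cav3.2, at 9.43 ± 0.72 TPM, and the control ranges of CACNB3 and CACNA1H did not overlap. CACNA2D2 followed at 7.05 ± 0.94 TPM, CACNB4 at 5.50 ± 0.75 TPM and CACNA2D1 at 5.13 ± 0.28 TPM, and neighbours among these 3 overlapped. CACNA2D3, at 4.49 ± 0.30 TPM, lay below the range of CACNA2D1 and above that of CACNB1. CACNB1, CACNB2, SCN9A and SCN4B, at 2.61, 1.84, 1.69 and 1.47 TPM, each overlapped the next. SCN8A, at 1.08 ± 0.05 TPM, did not overlap SCN4B above it or SCN3B below it. From SCN3B at 0.770 TPM through CACNA1G, CACNA1D, CACNA1B and SCN4A to CACNA1C at 0.511 TPM each gene overlapped the next, though CACNA1G (0.657 to 0.799 TPM) lay wholly above CACNA1B (0.524 to 0.631 TPM). SCN2B (0.306 TPM) and SCN2A (0.106 TPM) lay apart from their neighbours. CACNA1I, CACNA2D4, SCN3A, CACNA1A and CACNA1E, from 0.0409 down to 0.00495 TPM, rested on 1 to 30 counts over the controls.

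The listed sodium channel pores were led by SCN9A, the Nav1.7 of sensory neurons, and SCN8A, the Nav1.6 of nodes of Ranvier. SCN9A made up 48.3% ± 8.0 of the TPM of the 8 listed sodium pores in controls and 50.1% ± 4.1 after overexpression. Both genes are annotated on GRCh38, SCN9A (ENSG00000169432) at chr2:166195185-166376001 on the minus strand and SCN8A (ENSG00000196876) at chr12:51590266-51812864 on the plus strand. SCN9A had 6.91, 8.52, 6.27 and 7.36 CPM in control replicates 1 to 4 and 7.28, 6.83, 8.02 and 7.84 CPM in overexpression replicates 1 to 4, so each overexpression library lay within the control range. The log2 fold change was 0.04 (95% interval −0.18 to 0.27). On the TPM scale its sign was the opposite, −0.13 with a pseudocount of 0.1. SCN8A had 6.94, 7.0, 7.44 and 7.52 CPM in controls and 6.90, 6.37, 6.15 and 7.09 CPM after overexpression. Overexpression replicate 4 lay above the 2 lowest controls and the others lay below every control, which gave a log2 fold change of −0.12 (95% interval −0.29 to 0.04).

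The other sodium pores were scarce. SCN4A, the Nav1.4 of skeletal muscle, had 50 to 88 counts in controls and 37 to 74 after overexpression, with a log2 fold change of −0.26 (95% interval −0.70 to 0.19). SCN2A, the Nav1.2 of central axons, had 11 to 22 and 13 to 18 counts and a log2 fold change of −0.11 (95% interval −0.54 to 0.32). SCN3A, the Nav1.3 of embryonic brain, had 0, 0, 5 and 7 counts in controls and 2, 3, 5 and 7 after overexpression. Scaled by library size, its summed counts had a ratio of 1.48 (exact 95% interval 0.666 to 3.40, counting error only), an interval that includes 1. SCN11A, the Nav1.9 of pain-sensing neurons, had no count in controls and 6, 0, 2 and 0 after overexpression. Scaled by library size, that total of 8 is 2.79 times a floor of 3 counts over the controls, the exact 95% lower limit of the ratio is 1.78 (counting error only), and 2 of the 4 libraries carried it.

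Long identical stretches make some sodium pores uncertain in these tables. The longest run of identical bases shared by annotated transcripts was 206 for SCN3A and SCN9A, 170 for SCN1A and SCN2A, and 137 for SCN2A and SCN3A, against at most 47 between SCN8A and any other sodium pore gene. Reads from such runs were divided by the authors' estimate. SCN2A and SCN3A also share exonic bases with AC019197.1, which had 0 to 8 counts per library.

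The sodium β subunits are single-pass membrane proteins with an immunoglobulin fold that adjust gating and adhesion. SCN4B was the most abundant of the 3 and SCN3B had the smallest p among the 19 genes tested. SCN3B (ENSG00000166257, chr11:123629187-123655244, minus strand) had 2.79, 2.27, 2.51 and 2.90 CPM in controls and 1.91, 2.36, 2.16 and 1.41 CPM after overexpression. Overexpression replicate 2 lay above control replicate 2, so the groups overlapped, and the other overexpression libraries lay below every control. The log2 fold change was −0.42 (SE 0.16, 95% interval −0.76 to −0.07), with an unadjusted p of 0.0225 and an adjusted p of 0.187 (edgeR quasi-likelihood test, Benjamini-Hochberg adjustment). SCN3B did not pass the threshold of 0.05 on adjusted p, and 19.4% of all genes tested had an unadjusted p under 0.05. Its summed counts were 279 in controls and 200 after overexpression. SCN4B had 4.15, 3.67, 3.59 and 4.69 CPM in controls and 4.47, 4.55, 4.40 and 4.44 CPM after overexpression, within the control range, with a log2 fold change of 0.15 (95% interval −0.07 to 0.37). SCN2B had 20 to 30 counts in controls and 23 to 27 after overexpression, with a log2 fold change of 0.07 (95% interval −0.23 to 0.37).

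CACNA1H (ENSG00000196557, chr16:1153121-1221772, plus strand) was the most abundant calcium channel pore. It made up 79.4% ± 1.7 of the calcium pore TPM in controls and 78.4% ± 2.7 after overexpression. Its CPM was 46.4, 44.2, 47.1 and 44.1 in controls and 50.6, 42.7, 42.5 and 45.1 after overexpression. Overexpression replicate 1 was the highest of the 8 and replicates 2 and 3 the lowest. The fitted fold was 0.995 (95% interval 0.910 to 1.09), the narrowest among the pores. CACNA1G, the T-type pore Cav3.1, had 86 to 111 counts in controls and 68 to 104 after overexpression, a log2 fold change of −0.12 (95% interval −0.40 to 0.15). CACNA1I, the third T-type pore, had 30 counts in each group over the libraries but 0 in overexpression replicate 2, with a ratio of 1.05 (0.609 to 1.79).

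High-voltage-activated pores were each below 1 TPM in controls. CACNA1C, the L-type pore of heart and smooth muscle, had 87 to 134 counts in controls and 78 to 114 after overexpression, with a log2 fold change of −0.11 (95% interval −0.37 to 0.16). CACNA1D, the L-type pore of endocrine cells and hair cells, had 58 to 109 and 73 to 108 counts, with a log2 fold change of 0.18 (95% interval −0.13 to 0.49). CACNA1D shares 1399 exonic bases with CHDH on the opposite strand, which had 737 to 959 counts per library, so without known strand their reads cannot be fully told apart. CACNA1B, the N-type pore of presynaptic terminals, had 76 to 105 and 70 to 85 counts, with a log2 fold change of −0.16 (95% interval −0.40 to 0.08). CACNA1A, the P/Q-type pore, had 13 and 15 counts over the groups, a ratio of 1.21 (0.535 to 2.75), and CACNA1E, the R-type pore, 7 and 8, a ratio of 1.19 (0.378 to 3.87). For CACNA1E even a 2-fold difference in either direction would lie within the counting interval.

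The β subunits bind the pore from the cytoplasm and are needed for surface expression of high-voltage-activated channels. CACNB3 (ENSG00000167535, chr12:48813794-48828941, plus strand) had 20.9, 17.3, 20.3 and 21.0 CPM in controls and 19.9, 19.4, 18.7 and 18.3 CPM after overexpression, every value of the second group within the first's range, and a log2 fold change of −0.06 (95% interval −0.21 to 0.09). CACNB4 had 19.9, 18.5, 21.3 and 19.8 CPM in controls and 19.2, 17.0, 19.1 and 18.2 CPM after overexpression. Overexpression replicates 2 and 4 lay below every control, and the log2 fold change of −0.11 (95% interval −0.25 to 0.02) was the lowest of the 4 β subunits. CACNB4 shares 2168 exonic bases with AC068547.1 on the same strand, which had 0 to 75 counts per library. CACNB1, the β subunit of the muscle L-type channel, had 7.56, 5.68, 6.02 and 5.81 CPM in controls and 6.72, 6.49, 5.41 and 6.05 CPM after overexpression. Control replicate 1 was the highest of its 8 libraries, and without it the log2 fold change of −0.02 became 0.08. CACNB2, the main β subunit of heart, had 6.91, 5.49, 3.68 and 5.81 CPM in controls and 6.64, 6.58, 5.52 and 6.18 CPM after overexpression. Control replicate 3 was its lowest library and control replicate 1 its highest, and the log2 fold change was 0.18 (95% interval −0.18 to 0.55). CACNB2 shares 742 exonic bases with AL450384.2 on the opposite strand, which had 51 to 87 counts per library.

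The α2δ subunits are membrane-anchored extracellular proteins that raise channel surface density, and α2δ1 and α2δ2 bind gabapentin. CACNA2D1 had 23.0, 22.9, 21.4 and 22.8 CPM in controls and 21.8, 20.5, 20.9 and 22.6 CPM after overexpression. Overexpression replicates 2 and 3 of CACNA2D1 lay below every control. CACNA2D2 had 23.7, 22.5, 21.7 and 20.4 CPM in controls and 21.8, 21.6, 25.6 and 25 CPM after overexpression. Overexpression replicates 3 and 4 of CACNA2D2 lay above every control, and replicates 1 and 2 lay among them. CACNA2D3 had 10.3, 9.88, 11 and 10.1 CPM in controls and 9.79, 8.73, 10.1 and 10.9 CPM after overexpression, with replicates 1 and 2 below every control and replicates 3 and 4 among them. The log2 fold changes were −0.07 for CACNA2D1 (95% interval −0.18 to 0.05), 0.09 for CACNA2D2 (−0.07 to 0.25) and −0.06 for CACNA2D3 (−0.23 to 0.11). CACNA2D4, the α2δ subunit of photoreceptors, had 1 count in control replicate 4 and none elsewhere.

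**Figure D2:**
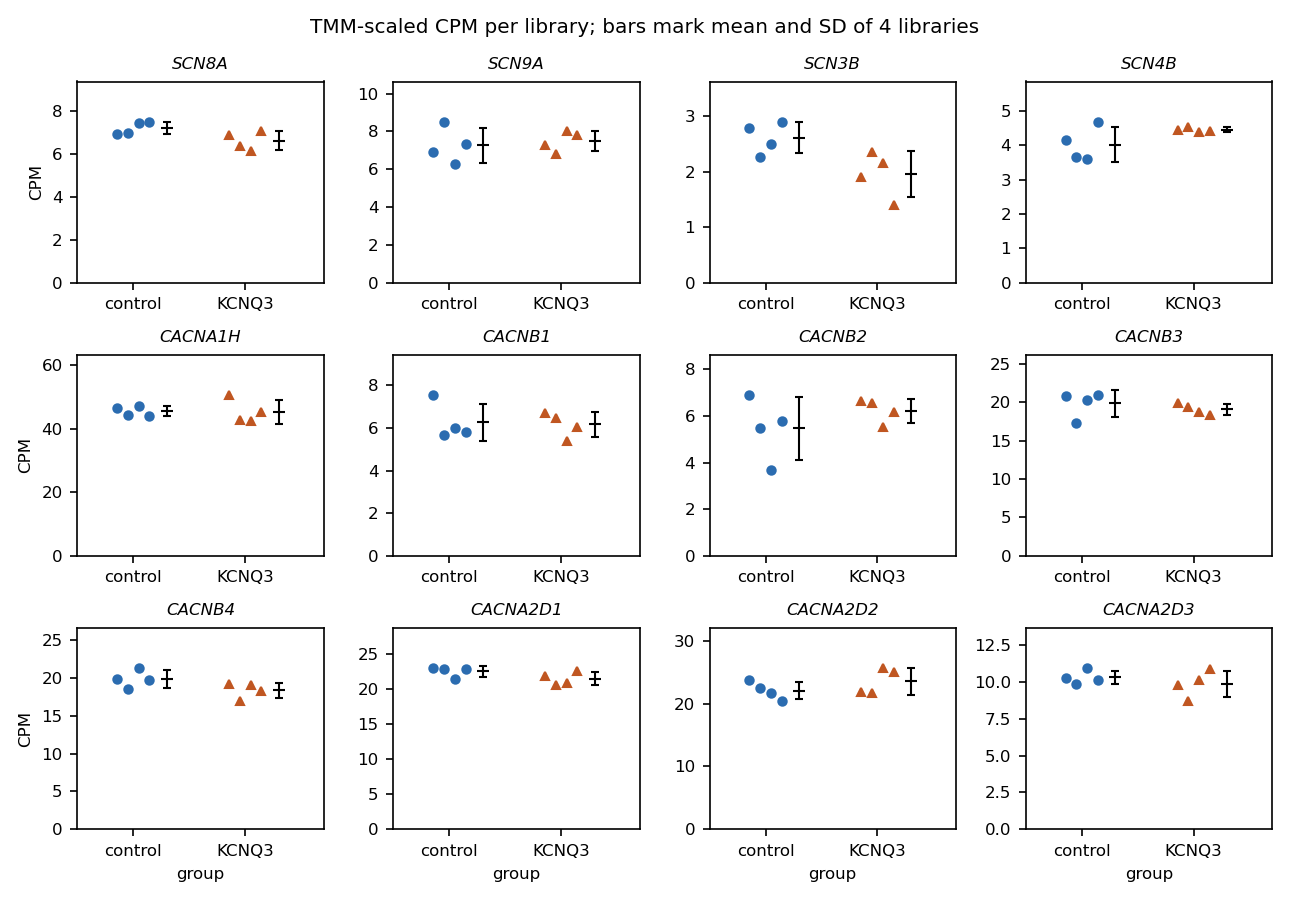
TMM-scaled CPM of 12 channel genes in each library, from 0 upward, with the mean and SD of 4 libraries beside each group. The CPM ranges of the 2 groups overlapped in each panel, SCN3B included, where 3 of 4 overexpression libraries lay below all controls.

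Across the family no gene passed. In the edgeR quasi-likelihood test, 0 of the 19 tested channel genes passed a Benjamini-Hochberg adjusted p of 0.05 and the smallest adjusted p was 0.187, against 58 of 19280 genes, or 0.301% (0.109% higher and 0.192% lower). An unadjusted p under 0.05 was found for 1 of the 19, SCN3B, against 19.4% of all genes tested. DESeq2 gave 12 of the 19 an adjusted p and called 0 of them, against 9.9% of the 13655 genes to which it gave one. Groups that did not overlap in CPM were found for 0 of the 19, against 11.6% of all genes tested. In TPM, which has no TMM scaling and depends on the division between transcripts, 3 of the 19 did not overlap and were lower, against 4.23% of all genes tested that were lower in this way. They were SCN8A (1.05 to 1.14 TPM against 0.858 to 1.03), SCN3B (0.623 to 0.876 against 0.360 to 0.595) and CACNA2D1 (4.91 to 5.52 against 4.39 to 4.89). Limma on log2(TPM + 0.1) gave adjusted p values of 0.489, 0.329 and 0.506 for these 3. The log2 fold change was below 0 for 13 of the 19, against 47.4% of all genes, and the median was −0.06, against 0.01 over all genes tested. In bulk RNA, fewer cells with a transcript and less of it per cell cannot be told apart.

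The intervals say how large a change the data allow, each taken singly without adjustment. The 95% interval held 0 for 18 of the 19, all but SCN3B. It lay within 1.5-fold in either direction for 17 genes and within 2-fold for 19. The fitted log2 fold change itself was under 0.2 in size for 17, SCN3B and SCN4A being the exceptions.

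**Figure D3:**
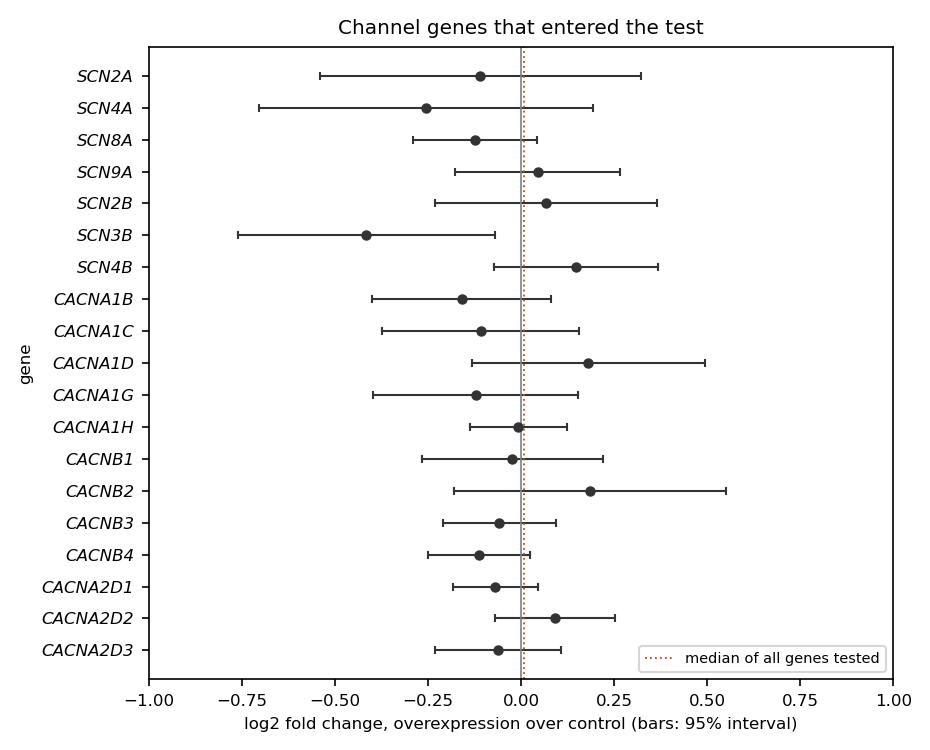
Log2 fold change of overexpression over control for the 19 tested channel genes, with 95% intervals from edgeR's fit; the solid line marks 0 and the dotted line the median of all genes tested. Only the interval of SCN3B, from −0.76 to −0.07, lay wholly on 1 side of 0.

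Transcripts were examined next, because channel genes of this family are spliced into many forms. Of the 35 channel transcripts with enough counts 0 passed the edgeR quasi-likelihood test at an adjusted p of 0.05, against 6 of 47129 transcripts, or 0.0127%. Their smallest unadjusted p was 0.196, for CACNA1C-204, while 5.58% of all transcripts had one under 0.05. In the test of transcript usage, which asks whether the shares of a gene's transcripts differ, 0 of 6 channel genes passed, against 0.383% of 9395 genes. The smallest unadjusted p there was 0.276, and 3.47% of all genes had one under 0.05.

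Some genes gave nearly all their counts to 1 transcript in every library. CACNA1H-201 held 91.6% to 97.8% of the counts of CACNA1H, CACNA2D1-202 held 92.7% to 99.1% of those of CACNA2D1, and CACNA2D3-206 90.6% to 99.6% of those of CACNA2D3. SCN4A-201 and CACNA1G-204 held at least 95.2% and 97.1%, and SCN2B had a single annotated transcript. SCN9A-203 took 73.2% to 93.5% of SCN9A and SCN4B-201 81.2% to 100% of SCN4B. SCN3B-202 took 63.0% to 100% of SCN3B.

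Elsewhere the leading transcript changed from library to library within a group. SCN8A-209 had 211, 181, 0 and 184 counts in controls and 182, 152, 0 and 58 after overexpression, while SCN8A-201 had 0, 0, 172 and 0 in controls and 0, 0, 159 and 109 after overexpression. In replicate 3 of each group nearly all counts of the gene, 178 and 165 in total, thus stood under the other form. All CACNA1B counts lay in CACNA1B-206 except in overexpression replicate 2, whose 85 counts all lay in CACNA1B-203. CACNA1D-201 had 106, 70, 45 and 76 counts in controls and 107, 70, 98 and 0 after overexpression. In that last library CACNA1D-224 held 53 of the 73 counts of the gene. CACNA2D2-203 had 7, 196, 208 and 148 counts in controls and 325, 266, 321 and 168 after overexpression. CACNA2D2-204 had 423 counts in control replicate 1 and 0 in every other library.

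The division between transcripts also varied in β subunit genes. For CACNB2 coding transcripts held at least 97.3% of the counts in every library, but CACNB2-202 took 53.4% to 100%. In control replicate 4 CACNB2-202 had 78 counts and CACNB2-220, also coding, had 57. CACNB1-206, which is annotated as a retained-intron transcript and not as coding, had 131, 118 and 114 counts in control replicates 2 to 4 but 13 in control replicate 1, where the coding CACNB1-212 had 213. CACNB3-209 had 107, 81, 357 and 53 counts in controls and 171, 54, 336 and 143 after overexpression. CACNB4-210 had 287, 20, 193 and 7 counts in controls and 365, 198, 73 and 213 after overexpression. CACNB4-238 had 325 and 336 counts in control replicates 2 and 4 and 0 in every other library of either group. The share of counts in transcripts annotated as protein coding ran from 8.14% to 71.4% over the 8 libraries for CACNB3, from 11.5% to 92.7% for CACNB1 and from 19.8% to 78.7% for CACNB4. The means for CACNB3 were 15.1% ± 6.0 in controls and 36.3% ± 33 after overexpression, with a spread as wide as the gap. SCN2A had no count in a coding transcript except in control replicate 2 (16.7%). With the 8 libraries pooled, a coding share under 50% was found for 15.8% of the tested channel genes and for 8.55% of 13794 tested protein-coding genes, and the median share was 97.8% and 98.1%.

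**Figure D4:**
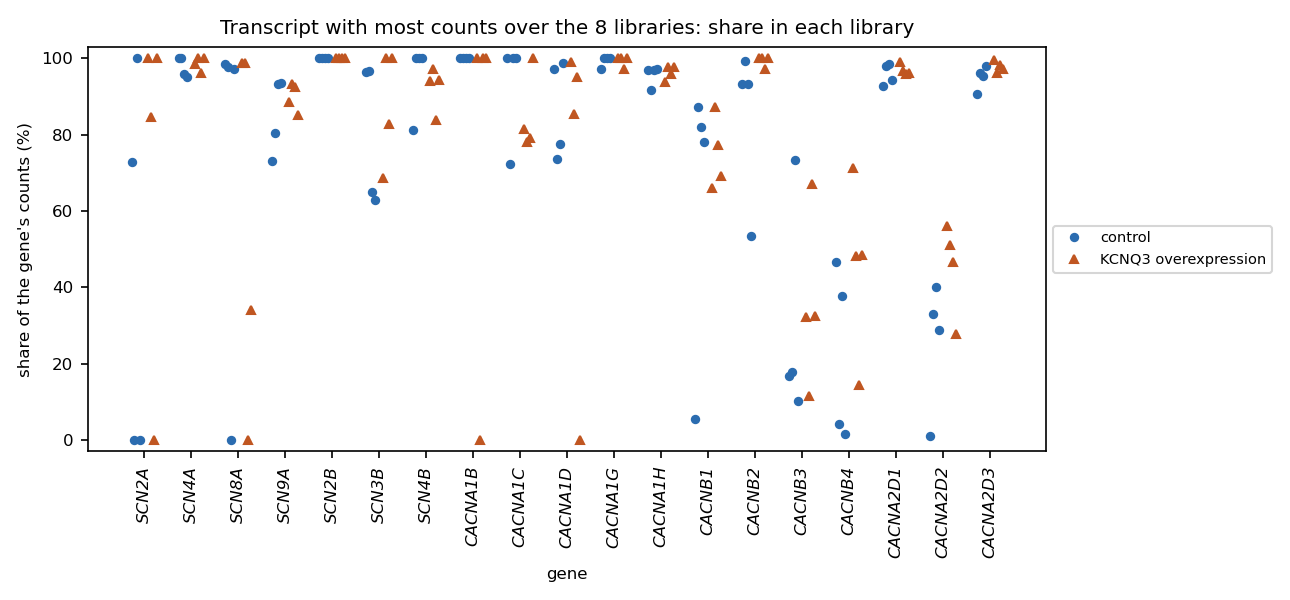
Share of each tested gene's counts, in percent, that was assigned in each library to the transcript with the most counts over all 8; circles are controls and triangles overexpression. CACNA1H, CACNA2D1 and CACNA2D3 stayed above 90% in every library, while SCN2A, SCN8A, CACNA1B and CACNA1D held libraries at 0%.

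The lengths behind these TPM values were checked from the tables. Count divided by TPM gives the length the authors used, up to a constant per library, and for 74 of 77 channel transcripts with enough counts it lay within 1.5-fold of the GENCODE 29 length. SCN8A-209 came out 1.95 times as long as in GENCODE 29, CACNA1C-204 2.1 times and CACNA1C-201 2.24 times. The lengths the authors used for these 3 thus differed from GENCODE 29, and the sources used here do not give where their first exons lie.

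The start sites were then read against sequence. CpG islands, stretches rich in the CG dinucleotide, cover the promoters of broadly expressed genes and of many developmental ones, while promoters of tightly tissue-restricted genes often have few CG steps. RefSeq windows of the 250 bases before an annotated start (build GRCh38.p14) matched 23 of the 29 genes, with 36 windows in all, and CG, which reads the same on both strands, was counted in each without overlap. For genes with several starts the richest window was taken. At least 1 CG was found in 93.9% of all 35116 windows in the table and at least 20 in 32.4%. The 15 tested channel genes with a window had a median of 28 CG, and 80.0% had at least 20. The 8 channel genes with too few counts to test had a median of 5, and 12.5% had at least 20. Over all protein-coding genes, again with the richest window of each, the medians were 23 for 10780 tested and 4 for 4116 not tested, and 64.2% and 14.1% had at least 20. Of the tested genes 4 had no window. A window need not lie at the start in use. Transcripts that begin within 500 bases of the window held 3.91% of SCN4B counts and 34.3% of CACNB1 counts in controls, against 99.4% for CACNA2D1 and 95.3% for CACNA2D3.

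SCN9A and SCN10A are shown first because 1 sodium pore was present and the other at 0. The sequences are the RefSeq bases before the start, cut where a GENCODE 29 exon of the gene begins, with each CG in capitals. The full SCN9A window holds 22 CG and the full SCN10A window 0.
SCN9A, chr2:166376002-166376194, minus strand: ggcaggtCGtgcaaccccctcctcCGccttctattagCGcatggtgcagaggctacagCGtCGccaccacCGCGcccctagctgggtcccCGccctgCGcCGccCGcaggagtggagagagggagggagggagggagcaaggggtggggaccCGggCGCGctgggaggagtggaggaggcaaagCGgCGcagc
SCN10A, chr3:38794043-38794260, minus strand: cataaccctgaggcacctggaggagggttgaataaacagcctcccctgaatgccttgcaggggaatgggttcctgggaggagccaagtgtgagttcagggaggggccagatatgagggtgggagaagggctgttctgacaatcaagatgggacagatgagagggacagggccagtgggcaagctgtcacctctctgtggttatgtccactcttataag
Transcripts that begin within 500 bases of this start held 95.9% ± 0.93 of SCN9A counts in controls and 96.8% ± 1.8 after overexpression. Some genes did not follow these medians. SCN2B was present in all 8 libraries with 0 CG in its window. SCN2A was present with 1 CG, but most of its counts lay away from its windows. Transcripts that begin within 500 bases of neither window held 79.0% ± 15 of SCN2A counts in controls and 96.2% ± 7.7 after overexpression. SCN11A, with 21 CG in the richer of its windows, had no count in controls. Its 8 counts after overexpression lay in transcripts of its other start, which has 2 CG.

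**Figure D5:**
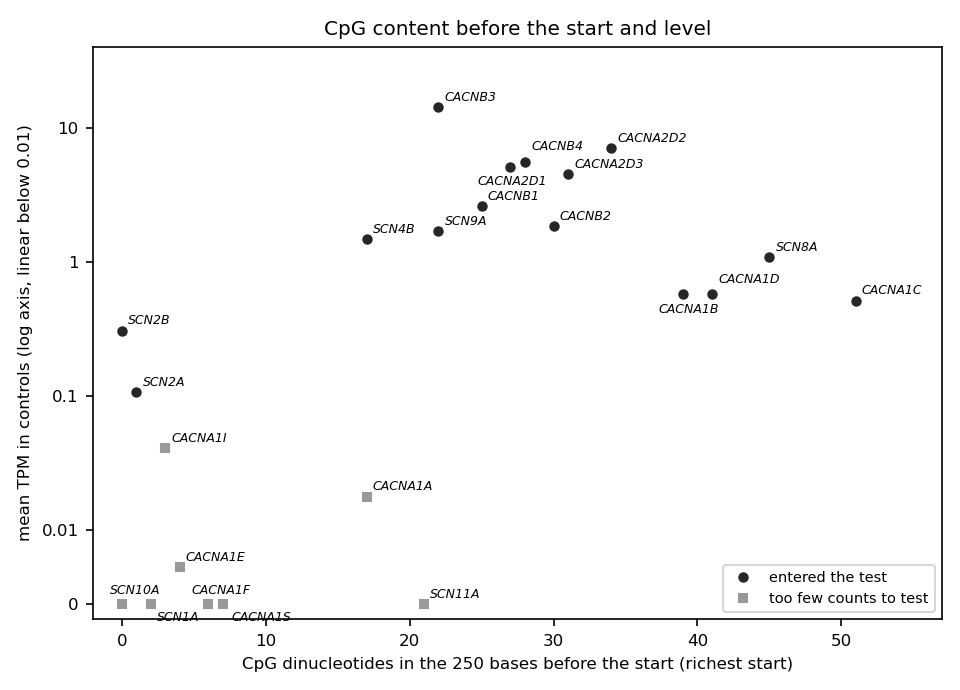
Number of CG dinucleotides in the 250 bases before the start (the richest start of each gene) against mean control TPM, for the 23 channel genes with a window; circles entered the gene test and squares did not. Squares lie mostly at the left, below 10 CG, while SCN2B and SCN2A are present with 0 and 1 and SCN11A is at 0 TPM with 21. The richest window need not lie at the start in use, and most SCN2A and SCN4B counts lay in transcripts that begin away from their windows.

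CACNB2 and CACNA2D2 are shown because each has alternative starts that differ in CG content and were used unequally. CACNB2 has 4 starts in the table. The first, with 30 CG, took 96.7% ± 3.9 of the gene's counts in controls and 99.5% ± 1.0 after overexpression. The other starts have 5, 5 and 9 CG. The third, shown here for contrast, had no transcript with a count within 500 bases of it.
CACNB2 start 1, chr10:18140174-18140423, plus strand: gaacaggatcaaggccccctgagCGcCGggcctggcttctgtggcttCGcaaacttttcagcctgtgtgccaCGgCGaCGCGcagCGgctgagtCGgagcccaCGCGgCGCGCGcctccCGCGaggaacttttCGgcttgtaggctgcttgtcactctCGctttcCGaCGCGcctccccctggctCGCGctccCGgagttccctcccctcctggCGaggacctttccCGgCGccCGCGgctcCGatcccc
CACNB2 start 3, chr10:18340459-18340684, plus strand: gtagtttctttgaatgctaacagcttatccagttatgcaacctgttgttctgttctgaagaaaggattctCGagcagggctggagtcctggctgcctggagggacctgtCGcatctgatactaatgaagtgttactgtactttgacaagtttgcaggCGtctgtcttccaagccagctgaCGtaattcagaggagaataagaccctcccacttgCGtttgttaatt
CACNA2D2 has a start with 34 CG that took 95.7% ± 3.3 of the counts in controls and 95.8% ± 2.9 after overexpression. A start with 2 CG that lies a short way upstream took 2.85% and 1.84%.
CACNA2D2 start 2, chr3:50503635-50503884, minus strand: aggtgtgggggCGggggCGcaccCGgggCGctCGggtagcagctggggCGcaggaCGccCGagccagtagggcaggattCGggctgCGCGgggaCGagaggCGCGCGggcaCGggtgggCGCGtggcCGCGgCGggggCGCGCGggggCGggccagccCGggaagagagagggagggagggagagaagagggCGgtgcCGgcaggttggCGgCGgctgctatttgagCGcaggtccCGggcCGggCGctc
CACNA2D2 start 1, chr3:50504245-50504494, minus strand: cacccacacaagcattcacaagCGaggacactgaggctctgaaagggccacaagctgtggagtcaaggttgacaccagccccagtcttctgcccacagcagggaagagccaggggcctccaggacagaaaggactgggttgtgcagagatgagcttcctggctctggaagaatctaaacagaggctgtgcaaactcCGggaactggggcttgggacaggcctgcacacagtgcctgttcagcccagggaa
These counts of letters describe the windows and not what binds there. The shares of each start overlapped between the groups for both genes. Both favoured the start with more CG, and CACNB4 did not: its start with 28 CG had no transcript assigned to it, while a start with 8 CG took 48.5% ± 25 of the counts in controls and 4.88% to 70.3% over the 8 libraries.

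The genes that work with these channels were read from lists. In each of the 6 lists 0 passed in either direction, against 58 of all 19280 genes tested, or 0.301%. Of 8 γ subunit genes, relatives of the muscle calcium channel γ1, 5 were tested, 3 of them with a log2 fold change below 0. CACNG8, which also serves AMPA receptors, had 8.31 ± 0.93 CPM in controls and 10.7 ± 1.3 after overexpression (log2 0.36, SE 0.11), with an edgeR adjusted p of 0.117. CACNG6 had 2.31 ± 0.40 and 1.68 ± 0.19 CPM (log2 −0.46, SE 0.15, edgeR adjusted p = 0.137). Of 5 genes of the sodium leak channel complex 2 were tested. UNC79, a large scaffold of that channel, had 0.867 ± 0.14 CPM in controls and 0.473 ± 0.21 after overexpression (log2 −0.88, SE 0.28, edgeR adjusted p = 0.137).

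Partners of sodium channels include the fibroblast growth factor homologues and ankyrins. Of 17 listed, 16 were tested and had a median log2 fold change of −0.03, with ANK3 at −0.13 and NUMB at −0.10. Partners of calcium channels and the RGK GTPases, which inhibit them, had 12 of 20 tested and a median of −0.09, with NOS1AP at −0.22, CASK at −0.07 and RIMS1 at −0.36. Store-operated and intracellular calcium channels and pumps had 23 of 24 tested and a median of −0.02. Groups did not overlap in CPM for 3 of them, or 3 of 23, against 11.6% of all genes tested. ATP2A1, a calcium pump of the sarcoplasmic reticulum, had 6.61 ± 0.74 and 8.17 ± 0.49 CPM, STIM2, a calcium sensor of the endoplasmic reticulum, 23.0 ± 0.96 and 25.2 ± 0.89 CPM, and SLC8A3, a sodium-calcium exchanger, 0.566 ± 0.11 and 0.363 ± 0.04 CPM. REST, the repressor that binds upstream of many neuronal channel genes, and its corepressors were all 8 tested, with a median of −0.07. The smallest p values in that list belonged to RCOR3 at −0.16, HDAC1 at 0.12 and RCOR2 at −0.18.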

How the data were processed

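RNA was sequenced in 4 control and 4 KCNQ3-overexpressing HEK293T libraries. HISAT2 2.1.0, StringTie 2.1.0, SAMtools 1.9, cutadapt 2.8 and FastQC 0.11.5 were used with build GRCh38.p13, per the submitters' processing notes. The sources used here name neither the annotation release nor the strand setting. Estimated counts of each transcript, in whole numbers, were deposited by the authors. A second table deposited by the authors holds TPM. Identifiers were joined to genes through GENCODE 29: 205804 of 227751 matched, with 98.7% to 98.9% of the counts, and both units were summed per gene. Between replicates the chi-square per degree of freedom was 9.72 to 18.6, so no library was a second copy.

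Genes kept by filterByExpr (minimum count 10, minimum total 15; 19280 genes) were tested with edgeR 4.0.16 in R 4.3.3 (TMM scaling, robust quasi-likelihood test, no covariates) and Benjamini-Hochberg adjustment over all of them, with a threshold of 0.05. CPM are TMM-scaled and intervals come from the standard error the test implies. Transcripts were tested likewise, and usage with diffSpliceDGE. The gene test was tested on simulated data. Alternatives used DESeq2 1.42.0, limma 3.58.1, other scalings, filters and pseudocounts, a replicate block, and each library left out.

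The channel genes and all lists were chosen with earlier results of these data known. Values in each library are given for tested genes with a control mean of at least 1 TPM, an unadjusted p under 0.05 or groups that do not overlap in CPM. Other genes, and most leading transcripts, are given by range. From each list up to 3 genes were named, those past the threshold or else those with the smallest p. Some items are not reported here.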

Additional observations from a re-analysis of the deposited data

Results flagged for a closer look

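In 8 of 76 sets of 4 libraries (each tested gene, group and unit), 1 library stood apart: its gap to the nearest other, over the whole range, was above Dixon's 95% critical value for 4 values. Chance flags about 1 in 20 such sets. All these libraries stayed in the tests, and the cause was not tested.

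Control replicate 3 was low in CPM for SCN2A, at 0.460 against 0.676 to 0.713, and for CACNA2D1, at 21.4 against 22.8 to 23.0. In TPM, overexpression replicate 1 was high for SCN2A at 0.0947 (others 0.0809 to 0.0829), for SCN4B at 1.89 (others 1.54 to 1.59), for CACNA1H at 11.4 (others 8.09 to 8.57) and for CACNB1 at 3.60 (others 2.39 to 2.44). In CPM the CACNA1H value of that library was 50.6 against 42.5 to 45.1. Overexpression replicate 4 was low in TPM for SCN3B at 0.360 (others 0.586 to 0.595). Overexpression replicate 3 was low in TPM for CACNB3 at 10.5 (others 13.6 to 14.1), where its CPM of 18.7 lay between those of the other libraries.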

How the results depend on the processing

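The count of channel genes past the threshold stayed at 0 in all 18 alternatives, and their smallest adjusted p over these was 0.130. SCN3B ran from −0.52 to −0.21 on the log2 scale, with adjusted p from 0.156 to 0.366 (edgeR, limma and DESeq2). Over all genes, the count of 58 calls became 35 without scaling factors, 1352 with DESeq2, 7 with limma on log2(TPM + 0.1) and 7 on log2(TPM + 1), 30 without robust estimation, and 8 to 378 when 1 library was left out (8 without overexpression replicate 2, 378 without overexpression replicate 1). The percentage called over all genes thus depends on the setting. The 6 transcripts became 0 without a filter, 0 with the replicate block and 0 to 9 with 1 library left out. The 36 genes called for usage became 927 without a filter, 21 with the replicate block and 123 to 164 with 1 library left out. With the replicate block 86 genes passed and 0 channel genes did. In their deviations from the group means, libraries of the same number correlated at −0.046 to 0.014, and those of different numbers at −0.075 to 0.08. These values show no pairing by number but cannot exclude one. The 22 channel genes present in every control library became 11 at a mean of 1 TPM.

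Signs turned for 4 genes, none of which passed the threshold. SCN9A was at −0.133 and −0.0915 on the 2 TPM scales and ran from −0.0225 to 0.127 with 1 library left out. CACNB1 was at 0.0746 and 0.0516 on the TPM scales and ran from −0.0730 to 0.0769, CACNB2, at 0.18 in CPM, was at −0.0576 and −0.0529 on the TPM scales, and CACNA1H ran from −0.0712 to 0.0183 with 1 library left out. The cause was not tested. Depth limits CACNA1A, CACNA1E, CACNA1I, SCN3A and SCN11A, which rest on at most 30 counts in a group.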
